A study of Homo sapiens with 8 samples.

Results

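The genes described here are 10 members of transforming growth factor beta (TGF-beta) and bone morphogenetic protein (BMP) signalling: the ligand genes TGFB1, BMP4 and GDF15, the SMAD genes SMAD3, SMAD4, SMAD6 and SMAD7, and the ID genes ID1, ID2 and ID3. They were picked by gene name from the 58302 gene identifiers of the count table, with earlier results of these data known. Of these members, 9 passed the filter on low counts and were among the 14133 genes tested, and SMAD6 did not pass. RNA sequencing compared OE-WT cells, DLD1 cells that carry lentiviral TRMT6/TRMT61A overexpression, with CTRL cells, the same line with an empty lentiviral vector and the genotype label WT. DLD1 is a line of human colon cancer cells, and TRMT6/TRMT61A is the complex that writes the methyl mark m1A on tRNA. The promoter that drives the transgenes and the number of clones behind each stable line are not given in the sources used here. Each group had 2 libraries, each labelled as 2 lanes and counted here as 1 replicate. The series' design text speaks of duplicate cultures and of separate TRMT6 and TRMT61A lines, while the sample labels name both genes together, and the methods give more replicates than the table holds.

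Ligands of this family bind pairs of type I and type II receptor kinases at the cell surface. The activated type I receptor phosphorylates receptor SMADs, SMAD2 and SMAD3 for TGF-beta and activin and SMAD1, SMAD5 and SMAD9 for BMP, which enter the nucleus together with the shared partner SMAD4. SMAD6 and SMAD7 are inhibitory SMADs that are transcribed in response to the pathway and limit it. ID genes are direct targets of BMP signalling in many cell types. ID proteins hold a helix-loop-helix domain without a DNA-binding region and keep E proteins such as TCF3 and TCF12 off DNA. GDF15 is a distant family member that cells secrete under stress, and its receptor GFRAL is restricted to the brainstem. In the colon, BMP signalling accompanies the differentiation of epithelial cells toward the crypt surface.

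OE-WT cells held more ID1 and ID2 mRNA and less SMAD3 mRNA than CTRL cells, and all of these changes were small. ID1 was 21.7% higher and ID2 17.2% higher, while SMAD3 was 19.1% lower. TGFB1, BMP4, GDF15, SMAD4, SMAD7 and ID3 did not pass an adjusted p of 0.05 in edgeR's quasi-likelihood test. Of the 9 members tested, 2 were called higher and 1 lower, against 9.44% of all 14133 genes called higher and 11.6% called lower at the same threshold. Scaling moved this balance: with library size only, 733 genes (5.19%) were called higher and 2451 (17.3%) lower in place of 1334 and 1642, and the members called were 0 higher and 2 lower (SMAD3 and BMP4). At the study's own thresholds, a log2 fold change beyond 1 in either direction with an unadjusted p below 0.05, 0 of the 9 members were called by edgeR, against 3.15% of all genes. By unadjusted p alone, 4 of the 9 were below 0.05, against 33.8% of all genes. With DESeq2's Wald test 0 of the 9 had an adjusted p below 0.05, against 3.45% of all genes called higher and 5.84% called lower. The calls of ID1, ID2 and SMAD3 are therefore not shared by DESeq2. The median log2 fold change was -0.10 over the 9 members and 0.01 over all genes tested.

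The libraries held between 10327498 and 12379671 counts on genes. Levels are given as CPM, read counts relative to the TMM-scaled library size. The overexpressed genes matched the labels: TRMT6 had a log2 fold change of 1.86 (SE 0.08) and TRMT61A one of 1.21 (SE 0.07), OE-WT over CTRL. Epithelial markers were abundant, with a summed level of at least 10115 CPM in each library, while fibroblast markers summed to at most 1.01 CPM and leukocyte markers to at most 0.777 CPM. Within the epithelial list KRT8 (log2 fold change 0.25) and KRT18 (0.30) were higher and CDH1 (-0.29) and KRT20 (-1.52), a keratin of differentiated colon epithelium, were lower at an adjusted p below 0.05. EPCAM (-0.08), VIL1 (0.55) and CDX2 (0.18) were not called, with edgeR adjusted p-values of 0.503, 0.110 and 0.078. For VIL1 and CDX2 both OE-WT libraries lay above both CTRL libraries. These genes, and VWF, were named after their values were seen. Among endothelial markers, VWF counts were 5 and 6 with the overexpression and 30 and 14 in CTRL, and CDH5 and KDR were at 0. KRT8 was not called without OE-WT replicate 2 (adjusted p = 0.133) or CTRL replicate 2 (0.056), KRT18 without OE-WT replicate 2 (0.051), and VWF without OE-WT replicate 1 (0.097) or CTRL replicate 1 (0.395, log2 fold change -1.04). With library size only, KRT8 (0.303) and KRT18 (0.153) were not called either. The part of these markers in the results on the members was not tested. In bulk RNA, fewer cells that express a gene and less of its RNA per cell cannot be told apart. The GRCh38 coordinates below are those of GENCODE release 44.

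The promoters of the ID genes and of SMAD3 are printed because these genes carry the calls, with ID3 beside its relatives. Each line holds the 250 bases before the RefSeq start site that lies closest to the canonical start, on the strand of the gene (GRCh38.p14), for ID1 (chr20:31605039-31605288, plus strand), ID2 (chr2:8681806-8682055, plus strand), ID3 (chr1:23559502-23559751, minus strand) and SMAD3 (chr15:67065352-67065601, plus strand). Capitals mark the SMAD box GTCT and the SMAD1/5 element GGCGCC, searched on both strands, so that AGAC is a SMAD box on the other strand.
ID1: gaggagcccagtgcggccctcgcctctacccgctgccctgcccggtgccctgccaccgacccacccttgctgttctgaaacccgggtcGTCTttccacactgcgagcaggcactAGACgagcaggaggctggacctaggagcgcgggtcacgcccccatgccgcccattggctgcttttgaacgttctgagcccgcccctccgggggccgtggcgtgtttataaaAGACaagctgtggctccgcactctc
ID2: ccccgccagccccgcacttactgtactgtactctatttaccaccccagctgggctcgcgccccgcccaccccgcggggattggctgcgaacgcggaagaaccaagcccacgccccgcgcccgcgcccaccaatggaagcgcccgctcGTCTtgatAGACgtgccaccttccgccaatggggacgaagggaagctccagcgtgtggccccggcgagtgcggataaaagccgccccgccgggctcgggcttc
ID3: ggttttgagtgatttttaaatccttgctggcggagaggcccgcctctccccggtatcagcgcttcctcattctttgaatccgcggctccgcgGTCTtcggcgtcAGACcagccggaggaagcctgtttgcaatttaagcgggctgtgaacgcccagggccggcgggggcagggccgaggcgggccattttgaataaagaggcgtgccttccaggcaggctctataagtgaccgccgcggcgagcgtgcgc
SMAD3: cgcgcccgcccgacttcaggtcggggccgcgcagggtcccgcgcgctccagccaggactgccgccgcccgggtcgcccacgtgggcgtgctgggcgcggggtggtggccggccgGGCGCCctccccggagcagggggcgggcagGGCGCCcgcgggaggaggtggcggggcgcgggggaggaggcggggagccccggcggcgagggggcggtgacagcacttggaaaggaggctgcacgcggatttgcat

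The ID1 window held 3 SMAD boxes and those of ID2 and ID3 held 2 each, with 0 copies of GGCGCC in each of these windows. The SMAD3 window held 0 SMAD boxes and 2 copies of GGCGCC. Sequence outside the 250 bases was not searched, so these counts cannot show whether a gene has such elements elsewhere. A SMAD box stood in 77.5% of the 35116 promoter windows of the table, and GGCGCC in 16.4%. The SMAD3 window was also rich in G and C, which made up 80.8% of its bases, against 66.0% for ID1, 69.2% for ID2 and 62.0% for ID3. The palindrome GTCTAGAC, which joins a SMAD box on each strand, stood in 0.182% of the windows and in 1 of the 10 member windows, that of SMAD6. It starts 12 bases before the SMAD6 start site (chr15:66701986-66702235, plus strand), and the last 40 bases of that window show it in capitals.
SMAD6: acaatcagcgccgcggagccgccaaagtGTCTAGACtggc

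**Figure D1:**
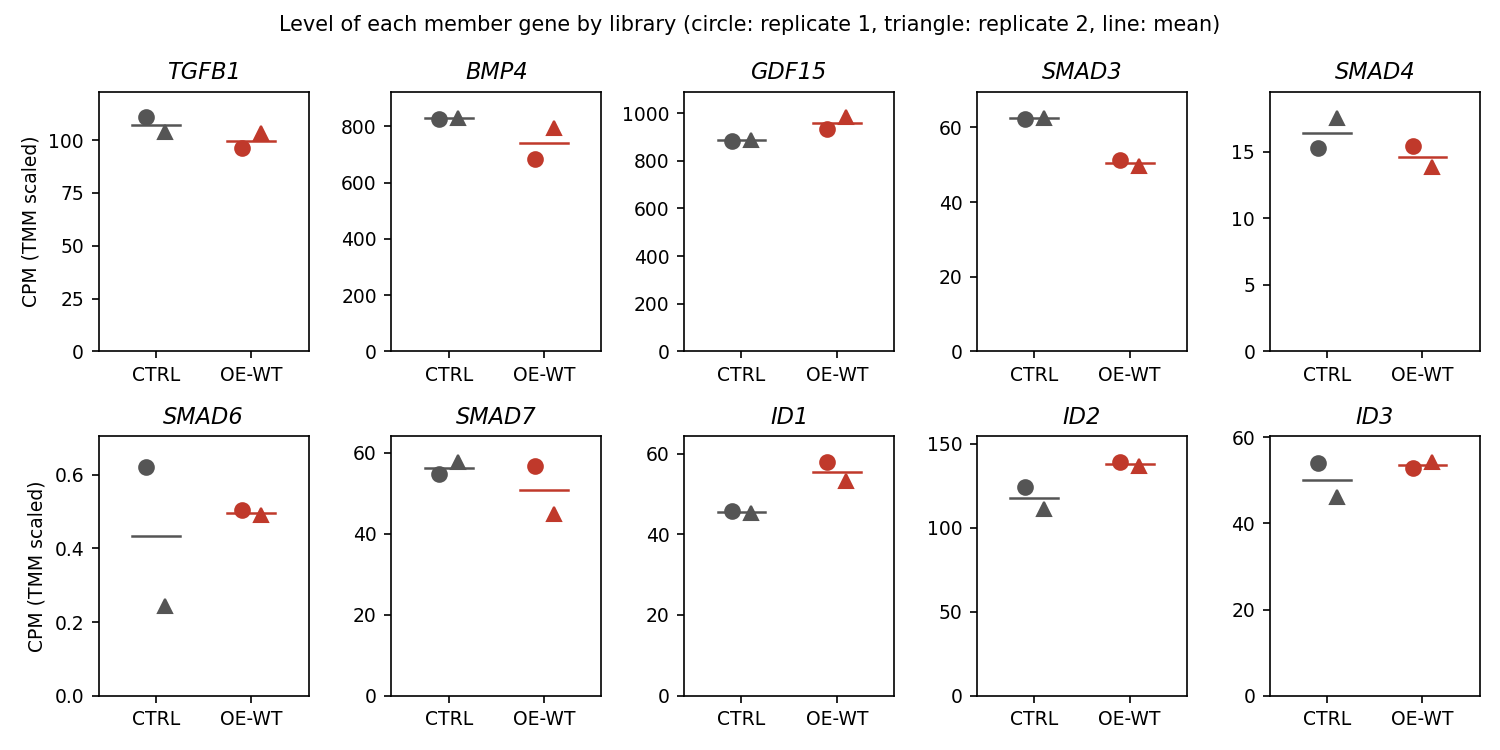
Level of each of the 10 members in CPM (y axis, from 0, a scale of its own per panel) in CTRL (grey) and OE-WT (red) libraries; circles are replicate 1, triangles replicate 2 and lines the mean of 2 libraries. ID1, ID2 and GDF15 were higher and SMAD3, BMP4 and TGFB1 lower in both OE-WT libraries than in both CTRL libraries, and of these ID1, ID2 and SMAD3 passed the test.

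Among the ligands, TGFB1 (ENSG00000105329, chromosome 19, 41301587 to 41353922, minus strand) encodes TGF-beta itself, which is secreted in a latent form. It had 96.4 and 103.3 CPM in the OE-WT libraries and 110.9 and 103.7 CPM in the CTRL libraries. The groups were separated by less than 1 CPM. The log2 fold change was -0.10 (95% interval -0.25 to 0.04, edgeR adjusted p = 0.315), so the data allow a change of TGFB1 between 15.9% lower and 2.94% higher. Exons of TGFB1 share 215 of 3264 bases with HNRNPUL1 on the opposite strand, and the strand setting of the counting is not given in the sources used here. HNRNPUL1 had 2547 to 2768 counts per library, against 957 to 1427 for TGFB1.

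BMP4 (ENSG00000125378, chromosome 14, 53949736 to 53958761, minus strand) encodes a BMP ligand and was the second most abundant member. Its exons share 506 of 3096 bases with the lncRNA ENSG00000287156 on the opposite strand. It had 685 and 793 CPM in the OE-WT libraries and 827 and 830 CPM in the CTRL libraries. The CTRL libraries lay close together (CV 0.293%), and the OE-WT libraries were spread more widely (CV 10.4%), with both below CTRL. The log2 fold change was -0.17 (95% interval, not adjusted for the number of genes, -0.31 to -0.02; edgeR adjusted p = 0.109). BMP4 was thus not called in the main fit, while with library size only it was called lower (-0.25, edgeR adjusted p = 0.038). The size of its log2 fold change also depended on which OE-WT library was left out. Leaving out OE-WT replicate 2 gave -0.28 with an adjusted p of 0.011, and without OE-WT replicate 1 it was -0.06 with an adjusted p of 0.743 in edgeR.

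GDF15 (ENSG00000130513, chromosome 19, 18374731 to 18389176, plus strand) was the most abundant member and stood at percentile 99.2 of the tested genes by mean CPM. It had 933 and 985 CPM in the OE-WT libraries and 883 and 888 CPM in the CTRL libraries. Both OE-WT libraries were above both CTRL libraries, and the log2 fold change was 0.11 (95% interval -0.02 to 0.25, edgeR adjusted p = 0.228). A change of GDF15 between 1.46% lower and 19.0% higher lies within that interval. The ratio of GDF15 to BMP4 counts within a library, which no scaling affects, was 1.36 and 1.24 in OE-WT and 1.07 in both CTRL libraries. Neither gene was called in edgeR's test, and the ratio was not tested.

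Among the SMADs, SMAD3 (ENSG00000166949, chromosome 15, 67063763 to 67195173, plus strand), the receptor SMAD of TGF-beta and activin, was the member with the smallest p. It had 51.4 and 49.6 CPM in the OE-WT libraries and 62.3 and 62.5 CPM in the CTRL libraries. The groups lay far apart relative to the spread within them, which was 1.24 CPM in OE-WT and 0.116 CPM in CTRL (SD, n = 2 each). The log2 fold change was -0.31 (SE 0.08, 95% interval -0.46 to -0.15, edgeR adjusted p = 0.0061). Its exons share 182 of 10011 bases with the lncRNA ENSG00000259347 on the opposite strand, which had at most 11 counts in a library. The call held in 10 of 11 alternative settings, including each library left out in turn, and was lost with DESeq2's Wald test (log2 fold change -0.31, adjusted p = 0.083).

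SMAD4 (ENSG00000141646, chromosome 18, 51028528 to 51085045, plus strand), the shared partner of the receptor SMADs, was measured at low depth, on 141 to 216 counts per library. That was 15.4 and 13.9 CPM in the OE-WT libraries and 15.3 and 17.5 CPM in the CTRL libraries. The groups overlapped, and the log2 fold change was -0.17 with a wide 95% interval of -0.44 to 0.11 (edgeR adjusted p = 0.415). That interval contains both 0 and the change of SMAD3. Exons of SMAD4 share 967 of 19606 bases with the protein-coding gene ENSG00000267699 on the same strand, which had 0 counts in every library. The effect of these shared bases on the SMAD4 counts was not tested.

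SMAD7 (ENSG00000101665, chromosome 18, 48919853 to 48950965, minus strand) encodes the inhibitory SMAD that recruits ubiquitin ligases to the TGF-beta receptor. It had 56.7 and 44.7 CPM in the OE-WT libraries and 54.7 and 57.6 CPM in the CTRL libraries. The OE-WT libraries disagreed more than for any other tested member (CV 16.7%): replicate 1 lay between the CTRL libraries, and replicate 2 lay below both. The log2 fold change was -0.15 (edgeR adjusted p = 0.280). Without OE-WT replicate 1 it was -0.32 with an adjusted p of 0.020, and without OE-WT replicate 2 it was 0.0057 with an adjusted p of 0.978. The direction for SMAD7 thus depended on which library was left out.

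SMAD6 (ENSG00000137834, chromosome 15, 66702236 to 66782849, plus strand), the inhibitory SMAD that acts mainly on BMP signalling, was close to the limit of detection, on 5 counts in each OE-WT library against 8 and 3 counts in the CTRL libraries. No fold change is given for it. It lies 280913 bases before SMAD3 on the same strand, so that neighbours in the genome stood at levels far apart. SMAD7 and SMAD4 also share a chromosome, with 2077562 bases between them.

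Among the ID genes, ID1 (ENSG00000125968, chromosome 20, 31605283 to 31606515, plus strand) had 57.8 and 53.2 CPM in the OE-WT libraries and 45.8 and 45.4 CPM in the CTRL libraries. The groups did not overlap, and the log2 fold change was 0.28 (SE 0.08, 95% interval 0.12 to 0.45, edgeR adjusted p = 0.014). ID1 was called in 7 of 11 alternative settings. It was not called without OE-WT replicate 1 (log2 fold change 0.23, adjusted p = 0.138), with library size only (0.19, adjusted p = 0.123), without a filter (0.26, adjusted p = 0.059) or with DESeq2's Wald test (0.28, adjusted p = 0.149).

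ID2 (ENSG00000115738, chromosome 2, 8678845 to 8684461, plus strand) had 139 and 137 CPM in the OE-WT libraries and 124 and 111 CPM in the CTRL libraries. The OE-WT libraries were nearly level with each other and both above CTRL, where the spread was 9.03 CPM (SD, n = 2). The log2 fold change was 0.23 (SE 0.07, 95% interval 0.08 to 0.37, edgeR adjusted p = 0.022). ID2 was called in 6 of 11 alternative settings. Without CTRL replicate 2, the library with the lowest ID2, the log2 fold change was 0.16 and the adjusted p 0.233, and without OE-WT replicate 1 they were 0.22 and 0.060. With library size only they were 0.14 and 0.256, without a filter 0.21 and 0.085, and with DESeq2's Wald test 0.23 and 0.138. Its antisense gene ID2-AS1, which shares 145 of its 2213 exon bases, had at most 11 counts in a library.

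ID3 (ENSG00000117318, chromosome 1, 23557926 to 23559501, minus strand) had 52.8 and 54.3 CPM in the OE-WT libraries and 53.9 and 46.1 CPM in the CTRL libraries. The groups overlapped, and the log2 fold change was 0.10 (95% interval -0.08 to 0.28, edgeR adjusted p = 0.454). The interval of ID3 contains the change of ID2, and that of ID1 lies just above its upper end. Whether ID3 differs from them was not tested. Without CTRL replicate 2 its log2 fold change was -0.0086.

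Summed over ID1, ID2 and ID3, the level was 249.7 and 244.4 CPM in OE-WT and 223.8 and 202.8 CPM in CTRL libraries, so the groups did not overlap. ID2 made up between 54.9% and 56.0% of the counts of these 3 genes in every library, and the shares of ID1 and ID3 ranged from 20.5% to 24.1%. Of the 9 members tested, 3 (ID1, ID2 and GDF15) had both OE-WT libraries above both CTRL libraries and 3 (TGFB1, BMP4 and SMAD3) had both below, against 29.9% and 30.2% of all genes tested.

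**Figure D2:**
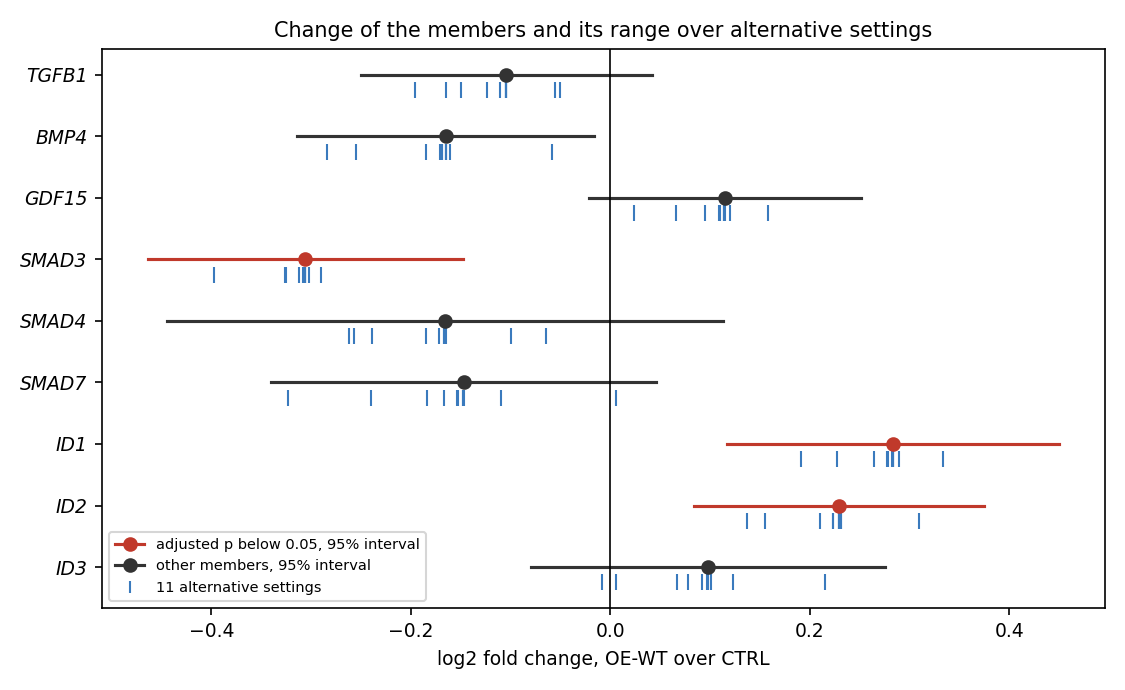
Log2 fold change, OE-WT over CTRL (x axis), of the 9 members tested, with the 95% interval of the quasi-likelihood fit (lines), red where the adjusted p was below 0.05, and the values in 11 alternative settings (blue ticks). The intervals of SMAD3, ID1, ID2 and BMP4 did not contain 0, and the ticks of SMAD7 and ID3 fell on both sides of 0.

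Set per kilobase of the canonical transcript, the members spanned a wide range of levels. The mean over the 4 libraries was 768 CPM per kilobase for GDF15, 406 for BMP4, 98.4 for ID2, 54.5 for ID3, 51.4 for ID1, 37.3 for TGFB1, 16.0 for SMAD7, 8.74 for SMAD3, 1.77 for SMAD4 and 0.122 for SMAD6. The secreted GDF15 and BMP4 stood at the top and the SMADs at the bottom of this order. Neighbours in this order did not overlap over the 4 libraries, except ID3 (48.5 to 57.2 CPM per kilobase) and ID1 (46.2 to 58.8). ID1 was above ID3 in OE-WT replicate 1 and below it in the other 3 libraries. These levels depend on the transcript length used, which for SMAD4 was 8772 bases.

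**Figure D3:**
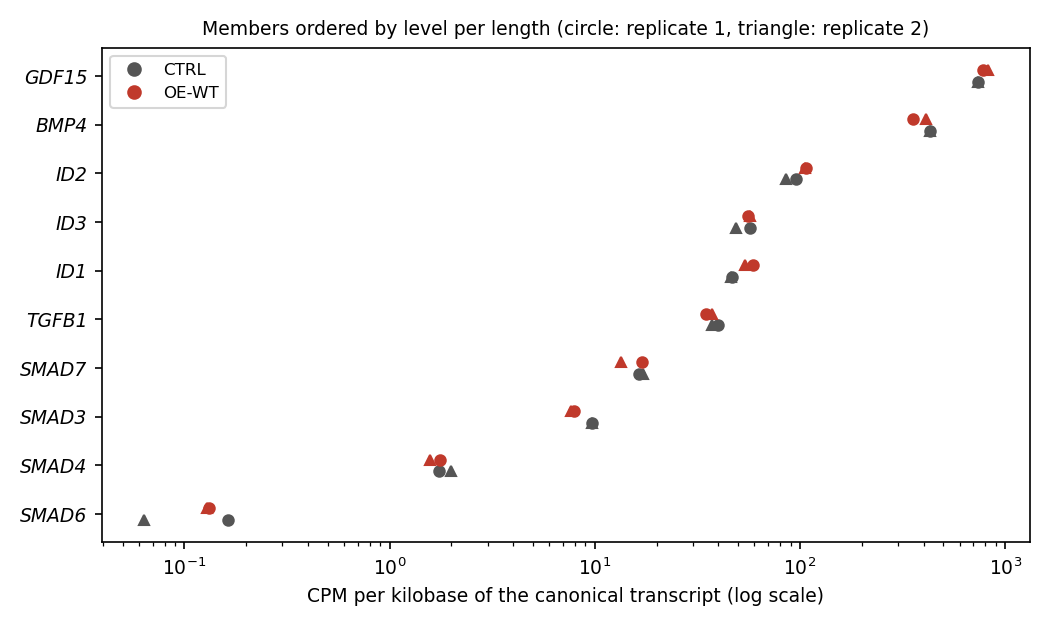
Level per length of the 10 members, in CPM per kilobase of the canonical transcript on a log axis, for CTRL (grey) and OE-WT (red) libraries, circles for replicate 1 and triangles for replicate 2. GDF15 and BMP4 lie above the other members, ID3 and ID1 overlap, and SMAD6 lies near 0.122.

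The rest of the pathway was read from 10 lists written by role, with 134 genes, of which 85 were tested. Of these, 10 (11.8%) were called higher and 18 (21.2%) lower, against 9.44% and 11.6% of all genes, which are also the shares to set beside the count of each list below, and the median log2 fold change was -0.06 against 0.01 for all genes. With DESeq2's Wald test 3 were called higher and 10 lower, where 3.45% and 5.84% of all genes were called, and 13 of the 28 genes called by edgeR were called there too. With library size only they were 5 higher and 27 lower, against 5.19% and 17.3% of all genes. Of the 18 lower calls, 2 were ligands, 2 were receptors, 5 were genes that store or activate ligands and 2 were antagonists. The others were 4 targets of TGF-beta, 1 intracellular regulator, 1 target of BMP and 1 stress gene.

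Of 30 other ligand genes, 9 were tested and 10 were at 0 in every library. INHBB, which encodes an activin subunit, and AMH, the anti-Mullerian hormone, were lower, and 0 were higher in edgeR's test; 4 of the 9 had an unadjusted p below 0.05 and DESeq2 also called INHBB and AMH lower. INHBB had 6.75 and 6.88 CPM in OE-WT and 11.7 and 14.4 CPM in CTRL libraries, a log2 fold change of -0.93 (SE 0.17, edgeR adjusted p = 4.1e-04). AMH had 3.93 and 2.06 CPM in OE-WT and 6.61 and 6.58 CPM in CTRL libraries, a log2 fold change of -1.14 (SE 0.25, adjusted p = 0.0022). Without OE-WT replicate 2 the value for AMH was -0.75, and without OE-WT replicate 1 it was -1.67. TGFB2, TGFB3 and BMP2, named after their values were seen as the closest relatives of TGFB1 and BMP4, were not called. Their log2 fold changes were -0.30 for TGFB2 (adjusted p = 0.169), 0.71 for TGFB3 (adjusted p = 0.055) and -0.23 for BMP2 (adjusted p = 0.090) in edgeR. TGFB3 had at most 54 counts in a library and was called without OE-WT replicate 1 or CTRL replicate 2, with an adjusted p of 0.022 each, and with a replicate block (0.048). BMP4 were between 22.6 and 26.4 times those of BMP2 in every library.

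Of 15 receptor genes, 10 were tested, 0 were called higher by edgeR or DESeq2 and 2 were called lower by edgeR, the type I receptors ACVR1, which serves mainly BMPs, and ACVR1B, which serves activins; 2 of the 10 had an unadjusted p below 0.05. ACVR1 had 12.4 and 13.4 CPM in OE-WT and 19.2 and 18.6 CPM in CTRL libraries (log2 fold change -0.55, SE 0.13, edgeR adjusted p = 0.0038). ACVR1B had 14.1 and 16.4 CPM in OE-WT and 19.7 and 20.1 CPM in CTRL libraries (log2 fold change -0.38, SE 0.13, adjusted p = 0.035). With DESeq2's Wald test the adjusted p was 0.051 for ACVR1 and 0.240 for ACVR1B. ACVR1B was also not called without OE-WT replicate 1, CTRL replicate 1 or CTRL replicate 2, with adjusted p-values of 0.273, 0.090 and 0.102, or without a filter (0.063). TGFBR2, the type II receptor of TGF-beta, had 83.2 and 81.5 CPM in OE-WT and 85.2 and 88.2 CPM in CTRL libraries. Its log2 fold change of -0.07 had a 95% interval of -0.22 to 0.07. The values were 0.28 for TGFBR1, -0.18 for ACVR2A, 0.41 for ACVR2B, 0.05 for BMPR1A, 0.54 for BMPR1B and 0.05 for BMPR2, with edgeR adjusted p-values of at least 0.154. GFRAL was at 0 in all 4 libraries, which allows at most 3 counts or 0.302 CPM in the library with the smallest scaled size, for counting error only.

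Of 12 genes that store or activate the ligands, 10 were tested and 5 were lower, against 11.6% of all genes, with 0 higher in edgeR's or DESeq2's test; 6 of the 10 had an unadjusted p below 0.05 and the median log2 fold change was -0.39. LTBP1, LTBP3 and LTBP4 encode the proteins that bind latent TGF-beta to the matrix. LTBP1 had 39.2 and 39.3 CPM in OE-WT and 64.1 and 65.1 CPM in CTRL libraries, a log2 fold change of -0.72 (SE 0.08, edgeR adjusted p = 1.2e-06). LTBP3 had 24.78 and 24.96 CPM in OE-WT and 42.3 and 40.5 CPM in CTRL libraries, a log2 fold change of -0.73 (SE 0.09, adjusted p = 7.5e-06). The log2 fold changes were -0.50 for LTBP4 (adjusted p = 0.021) and -0.47 for BMP1 (adjusted p = 4.6e-04), a protease that cleaves procollagens and the BMP antagonist chordin. LTBP4 was not called without OE-WT replicate 2 (adjusted p = 0.076), without CTRL replicate 2 (0.106) or with DESeq2's Wald test (0.171). The fifth gene, ITGAV, an integrin chain that activates latent TGF-beta, was named after its value was seen (log2 fold change -0.31, adjusted p = 0.016) and was not called without OE-WT replicate 2 (0.143) or with DESeq2 (0.153).

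Of 14 antagonist genes of the cell exterior, 4 were tested, and 5 were at 0 in every library. BAMBI, a decoy receptor without a kinase, had 24.3 and 33.5 CPM in OE-WT and 43.8 and 39.9 CPM in CTRL libraries, a log2 fold change of -0.53 (SE 0.11, edgeR adjusted p = 0.0018). TWSG1, which binds BMPs together with chordin, had a log2 fold change of -0.23 (adjusted p = 0.029). It was not called without OE-WT replicate 1 (adjusted p = 0.245), without CTRL replicate 2 (0.246) or with DESeq2's Wald test (0.177). Without CTRL replicate 2 its log2 fold change was -0.15. With a replicate block its adjusted p was 0.051 and without a filter 0.054. Leaving out OE-WT replicate 1 moved BAMBI to -0.32 (edgeR adjusted p = 0.046). In these 4 genes, 0 were called higher by edgeR or DESeq2, and 3 had an unadjusted p below 0.05.

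Of the other SMADs, 3 were tested, and 0 of them were called lower by edgeR or DESeq2, with 2 at an unadjusted p below 0.05. SMAD1, a receptor SMAD of BMP signalling, was higher, with 8.36 and 7.08 CPM in OE-WT and 4.28 and 4.95 CPM in CTRL libraries (log2 fold change 0.74, SE 0.20, edgeR adjusted p = 0.0096). This rests on at most 83 counts per library. SMAD1 was not called without OE-WT replicate 1 (adjusted p = 0.078), without CTRL replicate 1 (0.077) or with DESeq2's Wald test (0.112). The values were 0.25 for SMAD5 (adjusted p = 0.139) and 0.12 for SMAD2 (adjusted p = 0.356), and SMAD9 had at most 2 counts in a library. SMAD3 was thus the 1 SMAD called lower and SMAD1 the 1 SMAD called higher.

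Among 16 intracellular regulators, 15 were tested, 2 were called higher and 1 lower. TGIF1, a corepressor of SMAD2 and SMAD3, had a log2 fold change of 0.22 (edgeR adjusted p = 0.030), and STRAP, which helps SMAD7 at the receptor, had 0.20 (adjusted p = 0.037). SKI, a corepressor of SMAD3 and SMAD4, had -0.29 (adjusted p = 0.037). With a replicate block the adjusted p was 0.075 for TGIF1, 0.094 for STRAP and 0.062 for SKI, and with DESeq2's Wald test it was 0.206, 0.177 and 0.263. Single libraries also ended these calls: TGIF1 without OE-WT replicate 1 (0.218), CTRL replicate 1 (0.068) or CTRL replicate 2 (0.129), STRAP without OE-WT replicate 1 (0.233) or CTRL replicate 1 (0.282), and SKI without OE-WT replicate 2 (0.214), CTRL replicate 1 (0.064) or CTRL replicate 2 (0.131). Without a filter the adjusted p was 0.112, 0.124 and 0.067, and with library size only TGIF1 (0.296) and STRAP (0.375) were not called. Of the partners of ID proteins, TCF12 was higher, with 13.9 and 15.8 CPM in OE-WT and 8.40 and 11.3 CPM in CTRL libraries (log2 fold change 0.60, SE 0.16, adjusted p = 0.010). It was not called without CTRL replicate 1 (log2 fold change 0.40, adjusted p = 0.157) or with DESeq2's Wald test (0.083).

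Of 18 genes known as transcriptional targets of TGF-beta, 15 were tested; 3 were higher, 4 were lower and 8 were not called. TPM1, a tropomyosin, had 256 and 243 CPM in OE-WT and 144 and 149 CPM in CTRL libraries, a log2 fold change of 0.76 (SE 0.07, edgeR adjusted p = 5.4e-08). The values were 0.87 for FN1, which encodes fibronectin (adjusted p = 0.0089), 0.23 for TGFBI, a matrix adhesion protein (adjusted p = 0.016), and -0.84 for ANGPTL4, an inhibitor of lipoprotein lipase (adjusted p = 2.5e-04). CCN2, a matricellular protein, was named after its value was seen (-0.21, adjusted p = 0.045). FN1, on at most 75 counts per library, was not called without OE-WT replicate 1 (adjusted p = 0.143), without CTRL replicate 1 (0.063) or with DESeq2 (0.095). TGFBI was not called with library size only (0.276), a replicate block (0.055), or without OE-WT replicate 2 (0.190) or CTRL replicate 2 (0.079). The value for CCN2 was -0.10 without OE-WT replicate 1 and -0.33 without OE-WT replicate 2. CCN2 was not called without OE-WT replicate 1 (0.501), without CTRL replicate 1 (0.161), with a replicate block (0.077), without a filter (0.074) or with DESeq2 (0.216). The called targets lay on both sides of 0. Of the 15 tested, 10 had a log2 fold change below 0 and 5 above, with a median of -0.19 against 0.01 for all genes. In edgeR's test 7 of the 15 had an unadjusted p below 0.05, against 33.8% of all genes.

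Of 9 further targets of BMP, 5 were tested, with RUNX2 higher and MSX1 lower. RUNX2, a transcription factor of bone, had 25.8 and 22.1 CPM in OE-WT and 13.2 and 14.8 CPM in CTRL libraries (log2 fold change 0.78, SE 0.13, edgeR adjusted p = 1.3e-04). MSX1, a homeobox factor, had 15.01 and 18.9 CPM in OE-WT and 25.2 and 24.1 CPM in CTRL libraries (log2 fold change -0.54, SE 0.12, adjusted p = 0.0029), and without OE-WT replicate 1 its adjusted p was 0.057. The BMP targets ID1, ID2 and RUNX2 were thus called higher by edgeR, while MSX1 and the antagonist BAMBI were called lower. ID1 and ID2 were not called by DESeq2. ID3 (log2 fold change 0.10), MSX2 (0.24), DLX2 (0.46) and GATA2 (-0.17) were not called by edgeR.

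Of 12 stress genes known to be induced under the conditions that induce GDF15, 11 were tested. Of these, 2 were called higher, 1 lower and 8 were not called. The list leaned lower, with a median log2 fold change of -0.16. In edgeR's test 8 of the 11 had an unadjusted p below 0.05, against 33.8% of all genes. Both OE-WT libraries lay below both CTRL libraries for 7 genes and above for 2, against 30.2% and 29.9% of all genes. MDM2, a ubiquitin ligase, had a log2 fold change of 0.47 (edgeR adjusted p = 0.020). ATF4, the main factor of the integrated stress response, had -0.18 (edgeR adjusted p = 0.047). With DESeq2's Wald test the adjusted p was 0.163 for MDM2 and 0.127 for ATF4. Leaving out CTRL replicate 2 ended the call of MDM2 (0.123), as did library size only (0.052) and no filter (0.053), and leaving out any of the 4 libraries ended that of ATF4 (0.075 to 0.230), as did RLE factors (0.055) and a replicate block (0.151). As given above, GDF15 itself was not called.

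**Figure D4:**
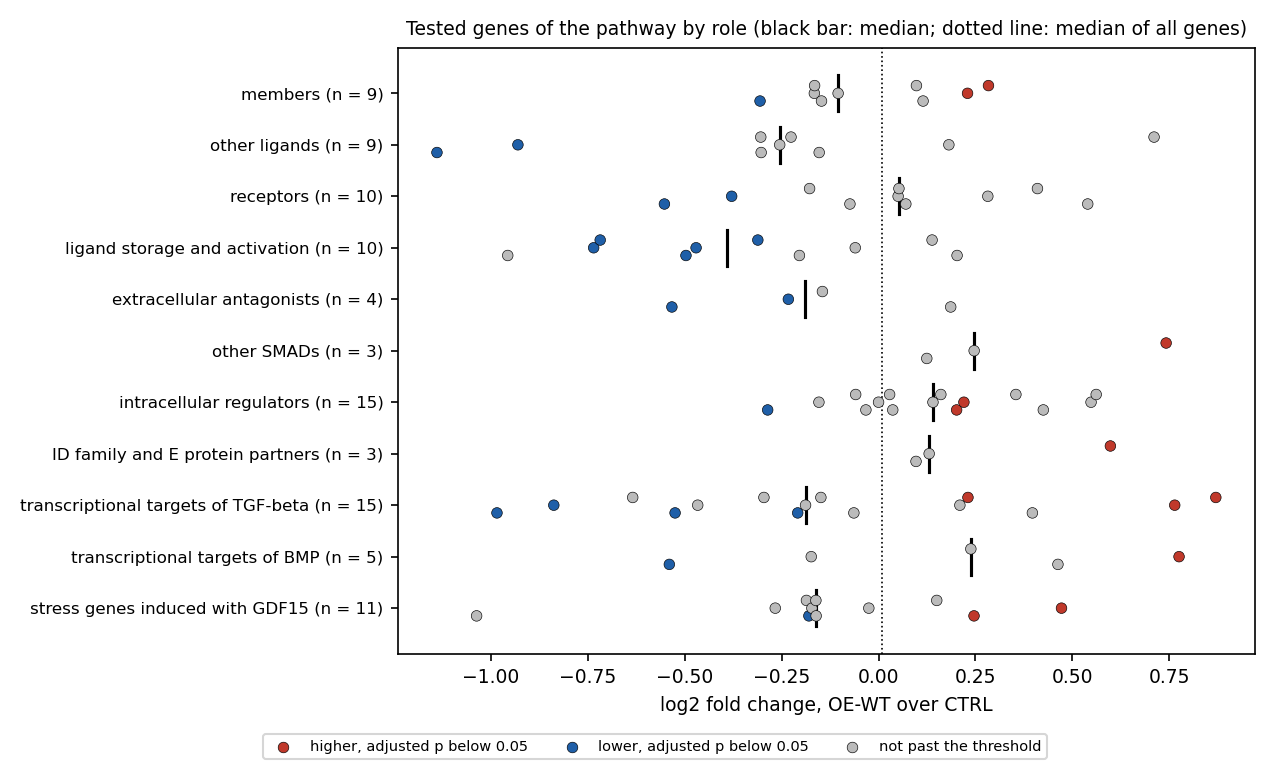
Log2 fold change, OE-WT over CTRL (x axis), of the tested members and of the tested genes of 10 pathway lists, each point a gene, red or blue where called higher or lower at an adjusted p below 0.05 and grey where not; black bars are list medians and the dotted line the median of all genes. The 5 calls among genes that store or activate ligands all lie below 0, and the calls among targets of TGF-beta lie on both sides.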

How the data were processed

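RNA sequencing covered 4 libraries, 2 of OE-WT and 2 of CTRL DLD1 cells. The deposited values are raw read counts per Ensembl gene. The study's methods name depletion of rRNA, trimming with Cutadapt, alignment to GRCh38 with HISAT2 and counting with HTSeq by the authors; the labels describe poly(A) selection, and the submitters' processing notes list HISAT2 2.2.1, featureCounts 2.0.0 and DESeq2 1.34.0. The annotation release and strand setting are not given in the sources used here. The table held 0 other columns per sample and no separate lanes. GENCODE release 44 matched 57532 of 58302 identifiers and gave positions and canonical transcript lengths. Promoters came from RefSeq (GRCh38.p14), with all 10 members matched. The RefSeq start used for BMP4 lay 1775 bases from its canonical start, while those of the other members lay at theirs.

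Counts were filtered by group with edgeR 4.0.16 in R 4.3.3 (minimum count 10), scaled by TMM and tested with the quasi-likelihood test without a block, with Benjamini-Hochberg adjustment over 14133 genes. The SE was taken as the absolute log2 fold change over the root of F, and the 95% interval uses the degrees of freedom of the fit. An exact permutation of 2 against 2 libraries cannot give a two-sided p below 0.333. Alternatives were RLE factors, library size only, DESeq2 1.42.0, the likelihood ratio test, other filters (1 count in all, or 10 in every library), a replicate block and each library left out; the arm left with 1 library was assumed to vary like the other. The fit was tested on simulated data of 14133 genes, of which 200 were changed. It recovered 90% of these 200 genes, and 7.69% of its calls were false. Recovery at the size of the members' log2 fold changes was not tested. Members and lists were chosen with earlier results of these data known. Named genes were the members, the overexpressed genes, the receptors and SMADs tested, and per list at most 4 called genes with separated groups and every call in a count of 3 or fewer. Plots used matplotlib 3.10.9. Protein sequences were not used here. Some genes that this rule names are not reported here.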

Additional observations from a re-analysis of the deposited data

How the results depend on the processing

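Each group had 2 libraries, and SMAD4 and SMAD6 had few counts. The members called were 2 higher and 1 lower; they were 0 and 2 with library size only, 0 and 0 with DESeq2's Wald test, and 0 higher without a filter beyond 1 count, and with each library left out they ranged from 0 to 2 higher and from 1 to 2 lower. For DESeq2 the cause was not tested. Library size only moved the median of all genes from 0.01 to -0.08. Of the other pathway genes, 10 were called higher and 18 lower. These were 5 higher with library size only, 3 higher and 10 lower with DESeq2, 6 higher without a filter, and 5 to 8 higher with each library left out. Over all genes, 1334 were called higher and 1642 lower. These were 733 higher with library size only, 487 higher and 825 lower with DESeq2, 844 higher without a filter, and 764 to 1231 higher with each library left out. The 445 genes past the thresholds of the study were 288 with DESeq2, 738 without a filter and 216 when every library had to hold 10 counts. With library size only, BMPR1A had a log2 fold change of -0.041 and BMPR2 one of -0.038, reversed from 0.05 in each, neither called. With each library left out, those that crossed 0 were SMAD7 (-0.32 to 0.0057), ID3 (-0.0086 to 0.22), BMPR1A (-0.034 to 0.13) and BMPR2 (-0.039 to 0.13). BMP4 was called lower with library size only (-0.25, adjusted p = 0.038). With the replicate block, 2 members were called higher and 1 lower, and 8 of 56 named genes lost their call and 1 (TGFB3) gained one. Across genes, libraries with the same number deviated from their group means with a correlation of -0.068. This value cannot show whether they share a culture or a preparation, and the sample labels do not say.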
